A study of Homo sapiens with 4 samples.

Results

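Expression of 9 Notch pathway genes was compared across 4 mRNA libraries of A549, a human cell line derived from a lung adenocarcinoma. The genes were taken by symbol. They comprised the receptors NOTCH1, NOTCH2 and NOTCH3, the ligands JAG1 and JAG2, the coactivator MAML2 and the target genes HES1, HEY1 and NRARP. All 9 were found among the 26255 symbols, and 7 had a mean of at least 1 FPKM, a level corrected for transcript length and library size, as did 12663 symbols in all. HEY1 and NRARP lay below that mean and were counted as not expressed. Wild-type cells had been grown for 5 days in medium with 5% serum, either on a plain culture dish (2D) or on gelled Matrigel (3D). Each culture was held in normoxia or in hypoxia at 1% oxygen. The 4 resulting groups are represented by a single library apiece. The study's question was how hypoxia bears on the micropapillary growth of lung adenocarcinoma.

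Notch receptors are single-pass membrane proteins that are activated by ligands of the Jagged and Delta-like families on a neighbouring cell. Binding leads to cleavage of the receptor, first by an ADAM protease and then by gamma-secretase, and the freed intracellular domain enters the nucleus. There it joins the DNA-binding protein RBPJ and a Mastermind-like coactivator and switches on targets such as the HES and HEY repressors. In the airway, Notch signalling is known for directing the choice between secretory and ciliated cells. Much of the pathway's control acts on proteins, through ligand contact and cleavage, and is not measured by mRNA levels.

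HES1 is the textbook target of RBPJ, and JAG1 was the member with the largest average difference between cultures, so the promoters of these 2 genes are shown. Both are the 250 bases before the RefSeq start of the gene on GRCh38.p14, written 5′ to 3′ on the strand of the gene. HES1 lies on the plus strand (chr3:194135898-194136147) and JAG1 on the minus strand (chr20:10674000-10674249). Capitals mark every match, on either strand, to the RBPJ core TGGGAA, the hypoxia response cores ACGTG and GCGTG, or the N-box CACNAG, to which HES proteins bind.
HES1: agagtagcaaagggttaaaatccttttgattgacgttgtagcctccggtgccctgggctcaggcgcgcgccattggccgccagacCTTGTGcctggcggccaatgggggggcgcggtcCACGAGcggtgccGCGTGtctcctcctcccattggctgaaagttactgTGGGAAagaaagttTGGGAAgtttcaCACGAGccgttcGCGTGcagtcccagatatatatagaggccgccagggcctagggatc
JAG1: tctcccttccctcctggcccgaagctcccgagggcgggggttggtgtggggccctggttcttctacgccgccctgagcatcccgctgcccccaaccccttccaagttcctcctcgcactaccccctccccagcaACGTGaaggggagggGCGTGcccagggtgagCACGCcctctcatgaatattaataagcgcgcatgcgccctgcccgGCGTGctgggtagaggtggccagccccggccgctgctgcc

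The HES1 window held 2 RBPJ cores, 84 and 70 bases before the start, along with 3 N-boxes and 2 GCGTG cores. Of 34788 promoter windows of the same length, 20.8% held an RBPJ core and 2.88% held 2 or more. The JAG1 window held 1 ACGTG and 3 GCGTG cores and no RBPJ core or N-box. ACGTG was found in 18.5% of all windows, GCGTG in 32.2% and the N-box in 32.0%. GCGTG was held 2 or more times by 10.2% of windows and the N-box by 6.30%. The windows of NOTCH1, JAG2, NOTCH3 and NRARP held 2, 1, 1 and 1 GCGTG cores, and those of NOTCH2 and MAML2 held neither hypoxia core. N-boxes were also found in the windows of NOTCH3 (1) and MAML2 (2). The RBPJ core was in none of the windows of NOTCH1, NOTCH2, NOTCH3, JAG1, JAG2, NRARP and MAML2. TATAAA was also searched and was found in the NRARP window alone of these 8. These matches describe letters in the windows and not binding.

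The libraries carried a mark of their oxygen labels, while the culture labels were not checked with a marker. CA9, a carbonic anhydrase induced by HIF, was at 4.05 FPKM or less in both normoxic libraries and at 199.7 and 138.5 FPKM in 3D and 2D hypoxia. The 6 epithelial markers summed to between 5205 and 8316 FPKM, most of it from KRT7, KRT8 and KRT18. EPCAM, also among them, was at only 1.43 to 2.73 FPKM. Of the 6 alveolar type II markers, 5 stayed below 1 FPKM in every library, ABCA3 being the exception. All 4 endothelial markers stayed below 1 FPKM, as did 3 of 4 blood cell markers (all but CD14) and 4 of 5 fibroblast markers (all but COL1A1). Depth, inferred from the commonest low values and given in units of 1000000 fragments, was about 11.9 and 11.3 for the normoxic and hypoxic 3D libraries and 24.1 and 38.9 for the 2D ones. The deeper libraries were thus those of 2D culture, so that depth and culture cannot be told apart. In bulk RNA, fewer cells expressing a gene and less RNA per cell cannot be told apart either.

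**Figure D1:**
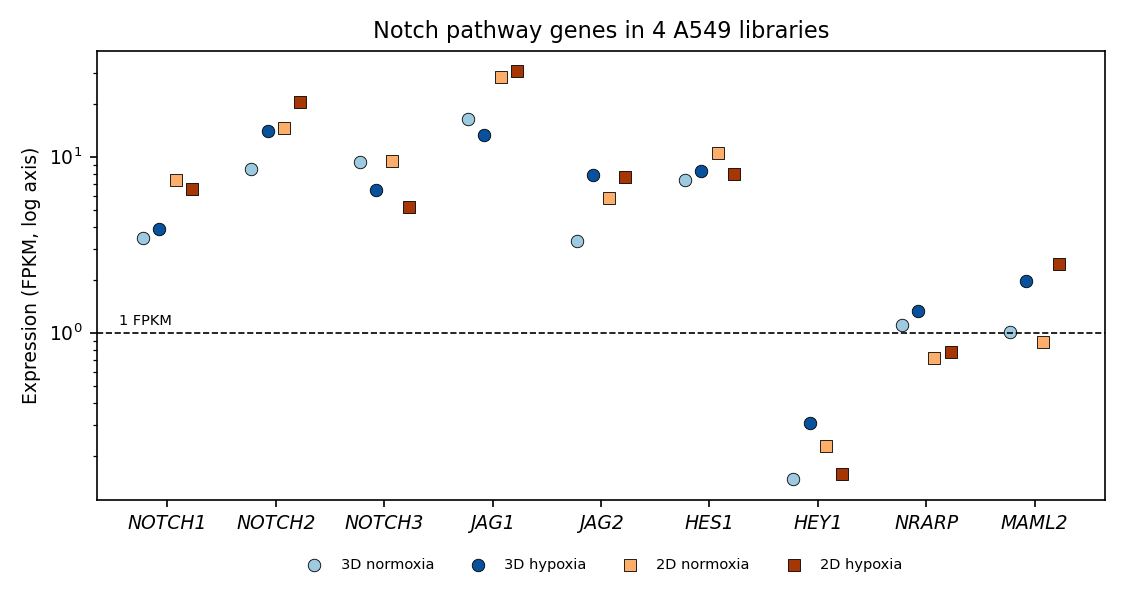
Expression of the 9 genes (y axis, FPKM, log scale) in each of the 4 libraries (points, circles for 3D and squares for 2D, dark for hypoxia). The dashed line is 1 FPKM. JAG1 and NOTCH1 lie higher in both 2D libraries than in both 3D libraries, HEY1 lies below the line in all 4, and HES1 spans the smallest fold range of the expressed genes, from 7.35 to 10.5 FPKM.

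Among the receptors, NOTCH2 had the highest mean level and NOTCH1 the lowest of those expressed. NOTCH1, a receptor broadly present in epithelia, was at 3.45 and 3.90 FPKM in the normoxic and hypoxic 3D libraries and at 7.36 and 6.51 FPKM in their 2D counterparts. Both 2D libraries stood above both 3D libraries, and the pair within each culture lay close together. NOTCH2 was at 8.44 and 14.0 FPKM in the normoxic and hypoxic 3D libraries and at 14.6 and 20.4 FPKM in their 2D counterparts. It was higher in hypoxia than in normoxia in each culture and higher in 2D than in 3D under each oxygen level. 3D hypoxia and 2D normoxia were neighbours in that order. NOTCH2 has partial copies in the genome, listed as NOTCH2NL at 2.22 to 3.37 FPKM, and the handling of fragments that fit both is not given in the labels. Its values are uncertain for that reason.

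NOTCH3, a receptor best known from smooth muscle and also present in lung carcinomas, went the other way with oxygen. It was at 9.26 and 6.45 FPKM in the normoxic and hypoxic 3D libraries and at 9.43 and 5.17 FPKM in their 2D counterparts. The 2 normoxic libraries were the highest and differed by a log2 ratio of -0.02, within its 95% counting interval of -0.12 to 0.08. NOTCH4 was listed at 0.0574 to 0.146 FPKM and was below the mean of 1 FPKM.

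The ligands were led by JAG1. JAG1 was at 16.2 and 13.2 FPKM in the normoxic and hypoxic 3D libraries and at 28.2 and 30.6 FPKM in their 2D counterparts. Its 2 libraries from 2D stood well above its 2 from 3D. JAG2, which engages the same receptors, was at 3.32 and 7.86 FPKM in the normoxic and hypoxic 3D libraries and at 5.80 and 7.67 FPKM in their 2D counterparts. The library from 3D normoxia was the lowest, and the 2 hypoxic libraries did not differ beyond counting error (log2 ratio 0.03, interval -0.10 to 0.16). Of the other canonical ligands, DLL3 was expressed at 3.06 to 4.34 FPKM, while DLL1 and DLL4 stayed below 1 FPKM in all 4 libraries. DLL3 is an atypical ligand that mostly acts inside the cell that makes it.

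MAML2 is a Mastermind-like coactivator that bridges the Notch intracellular domain to the transcription machinery. MAML2 was at 1.01 and 1.95 FPKM in the normoxic and hypoxic 3D libraries and at 0.880 and 2.44 FPKM in their 2D counterparts. Both hypoxic libraries stood above both normoxic ones, and both normoxic values lay near the 1 FPKM limit. The JAG1 and MAML2 loci each have an annotated antisense gene whose exons overlap theirs in GENCODE 29. The libraries were made with a stranded kit, but the labels do not say whether strand was used in counting, so reads of these antisense genes may be included. Exons of JAG2 overlap those of an annotated processed transcript on the same strand, which is not among the symbols. Strand cannot separate their reads, so the JAG2 values may include that transcript.

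Of the target genes, HES1, a repressor switched on by Notch and by several other pathways, was at 7.35 and 8.31 FPKM in the normoxic and hypoxic 3D libraries and at 10.5 and 7.99 FPKM in their 2D counterparts. The library from 2D normoxia was the highest, and the other 3 lay between 7.35 and 8.31 FPKM. NRARP, a feedback inhibitor that destabilises the Notch intracellular domain, was at 1.11 and 1.33 FPKM in the normoxic and hypoxic 3D libraries and at 0.716 and 0.774 FPKM in their 2D counterparts. Its mean was 0.981 FPKM, just under the limit. Both 3D libraries were above both 2D libraries, but NRARP rested on only about 23.4 to 53.2 fragments per library. Its order is therefore not read as a difference with culture. HEY1, another Notch-induced repressor, was at 0.147, 0.307, 0.226 and 0.157 FPKM in that order. At these depths HEY1 rested on about 4.01 to 14.0 fragments per library, so no difference is read from it.

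The first comparison asked how these genes differed with oxygen in 3D. Ratios were taken as log2 of FPKM + 1, which understates the differences of low genes, and errors are standard errors of counting fragments only. With 1 library per group no test was possible for a pair of libraries. JAG2 was the 1 of 7 expressed members that was at least 2-fold apart, with a log2 ratio of 1.04 ± 0.09. On rescaling each library to an FPKM sum of 1000000 the ratio was 0.998, just under 2-fold. Across all genes 4.02% were at least 2-fold apart in either direction. NOTCH2 followed at 0.67 ± 0.05 and MAML2 at 0.56 ± 0.11. NOTCH3 was lower in hypoxia (-0.46 ± 0.07) and so was JAG1 (-0.28 ± 0.06). NOTCH1 (0.14 ± 0.08) and HES1 (0.16 ± 0.15) lay within their 95% counting intervals of 0. The median of the 7 genes was 0.16, beside -0.02 for all genes.

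In 2D, 0 of 7 members were at least 2-fold apart between hypoxia and normoxia, against 3.60% of all genes. MAML2 had the highest log2 ratio (0.87 ± 0.07). Its FPKM value itself was 2.78 times that of normoxia, a difference that adding 1 FPKM reduces, and the ratio passed 2-fold with a pseudocount of 0.1 (1.38). NOTCH2 was at 0.45 ± 0.03 and JAG2 at 0.35 ± 0.05. NOTCH3 was the lowest, at -0.76 ± 0.04, a value below which only 2.92% of all genes lay. HES1 was also lower in hypoxia (-0.35 ± 0.09), and NOTCH1 was at -0.15 ± 0.04. JAG1 was at 0.11 ± 0.03, but this ratio turned to -0.02 when each library was rescaled to an FPKM sum of 1000000.

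**Figure D2:**
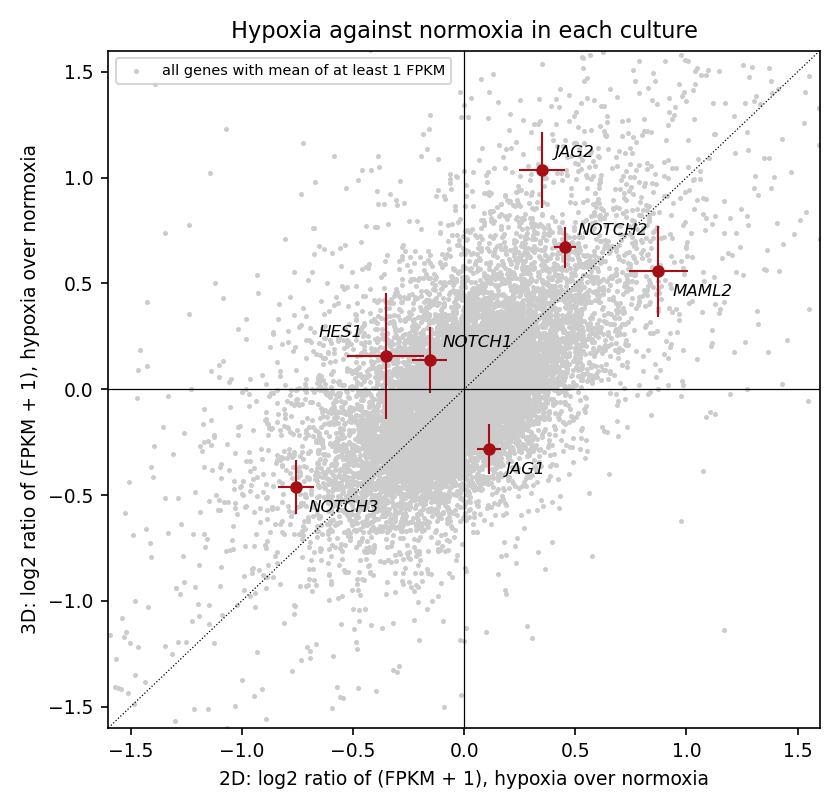
Log2 ratio of FPKM + 1, hypoxia over normoxia, in 2D (x axis) and in 3D (y axis). Red points are the 7 expressed members with 95% counting intervals, grey points are all genes averaging 1 FPKM or more that fall within the axes, and the dotted line marks equal ratios. NOTCH2, JAG2 and MAML2 lie above 0 on both axes and NOTCH3 below 0 on both, with JAG2 at 1.04 in 3D and 0.35 in 2D.

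The average of oxygen over both cultures was the only oxygen comparison with an error term. limma, fitted to all 12663 genes with culture as a second term, called 0 of the 7 members, beside 4.84% of all genes, at a Benjamini-Hochberg adjusted p below 0.05. At an unadjusted p below 0.05 there were 4 of 7 members and 25.6% of all genes. These 4 were NOTCH2 (0.56 ± 0.12 SE, limma adjusted p = 0.0637), NOTCH3 (-0.61 ± 0.13, adjusted p = 0.0645), MAML2 (0.72 ± 0.18, adjusted p = 0.0889) and JAG2 (0.69 ± 0.19, adjusted p = 0.0972). Each of the 4 had the same sign in 2 of 2 cultures. The average was taken over these same ratios, so their agreement adds no separate support. NOTCH2 passed when the fit was limited to genes averaging 5 FPKM or more (adjusted p = 0.0326), and NOTCH3 passed after rescaling to a sum of 1000000 (adjusted p = 0.0442). NOTCH1, JAG1 and HES1 had average differences of -0.01, -0.09 and -0.10 with adjusted p of 0.981, 0.743 and 0.736.

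The hypoxia responses of the 2 cultures were then set against each other. No test was possible for this difference, since it takes up the last degree of freedom. JAG2 had the highest difference, its log2 ratio being 0.69 ± 0.11 higher in 3D than in 2D, and HES1 followed at 0.51 ± 0.17. NOTCH3, NOTCH1 and NOTCH2 were at 0.30, 0.29 and 0.22, while MAML2 (-0.32 ± 0.13) and JAG1 (-0.39 ± 0.07) had higher ratios in 2D. None of the 7 members reached a 2-fold difference of responses, as 2.73% of all genes did.

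The comparison of 3D with 2D asked what differed with growth on Matrigel. In normoxia 0 of 7 members were at least 2-fold apart, beside 4.47% of all genes. NOTCH1 was at -0.91 ± 0.07 and passed 2-fold with a pseudocount of 0.1 (-1.07) and on rescaling (-1.17). JAG1 was at -0.76 ± 0.05, NOTCH2 at -0.73 ± 0.04, JAG2 at -0.66 ± 0.08 and HES1 at -0.46 ± 0.13, with 15.2% of all genes lower than HES1. NOTCH3 and MAML2 lay within counting error of 0. The median of the members was -0.66, beside -0.03 for all genes.

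In hypoxia, JAG1 was the 1 of 7 members at least 2-fold apart between the cultures, beside 6.82% of all genes. Its log2 ratio was -1.15 ± 0.05, and 1.96% of all genes had a lower one. NOTCH1 was at -0.62 ± 0.06, NOTCH2 at -0.51 ± 0.03 and MAML2 at -0.22 ± 0.09, while NOTCH3 was higher in 3D (0.27 ± 0.06). JAG2 and HES1, lower in 3D under normoxia, were at 0.03 ± 0.06 and 0.05 ± 0.12 here. The normoxic and hypoxic comparisons use different libraries.

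Averaged over oxygen, 3 of 7 members fell in 3D and 0 rose by limma, beside 22.0% of all genes called in either direction. JAG1 fell by 0.96 ± 0.14 (SE) on the log2 scale, adjusted p = 0.0134, and was lower in 3D in 2 of 2 comparisons. NOTCH1 fell by 0.76 ± 0.14 (limma adjusted p = 0.0206) and NOTCH2 by 0.62 ± 0.12 (adjusted p = 0.0243), again in 2 of 2 comparisons each. Those comparisons are the ones averaged, so their agreement adds no separate support. Without the filter on low values only 3 genes of the whole series passed, and these 3 members did not (adjusted p of 0.0584, 0.0796 and 0.0721). Rescaling to a sum of 1000000 left all 3 past the threshold, with values of -1.17, -1.01 and -0.83. MKI67, a marker of cycling cells, moved with culture too, at 32.3 and 24.0 FPKM in 3D normoxia and hypoxia and 93.4 and 78.1 in 2D, and its part in the differences of JAG1, NOTCH1 and NOTCH2 was not tested. JAG2, HES1, MAML2 and NOTCH3 did not pass (adjusted p of 0.261, 0.371, 0.816 and 0.517).

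Ratios between genes of 1 library do not depend on how libraries were scaled. The ratio of NOTCH2 to NOTCH3 was 0.911 in 3D normoxia (95% counting interval 0.836 to 0.993) and 2.18 in 3D hypoxia (1.99 to 2.38). In 2D it was 1.55 under normoxia (1.47 to 1.64) and 3.95 in hypoxia (3.75 to 4.15). NOTCH2 stood above NOTCH3 in 3 libraries, while in 3D normoxia the gap (8.44 against 9.26 FPKM) was smaller than the 2.66 FPKM listed for NOTCH2NL, so no order is read there. Of the summed receptor FPKM, NOTCH2 made up 39.8% and 57.2% in the normoxic and hypoxic 3D libraries and 46.5% and 63.5% in those from 2D. NOTCH3 made up 43.6%, 26.3%, 30.0% and 16.1% in that order. The sum of the 4 receptors was 21.2 and 24.5 FPKM in 3D normoxia and hypoxia and 31.5 and 32.1 FPKM in 2D.

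On the ligand side, the ratio of JAG1 to JAG2 was 4.90 in 3D normoxia (4.25 to 5.65) and 4.86 in 2D normoxia (4.51 to 5.24). It was 3.98 in 2D hypoxia (3.78 to 4.20) and 1.68 in 3D hypoxia (1.51 to 1.87), the lowest of the 4. JAG2 thus held 31.3% of the summed ligand FPKM in 3D hypoxia, against 13.7% to 18.4% in the other 3 libraries. These intervals cover the counting of fragments alone, and the depths behind them are estimates.

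**Figure D3:**
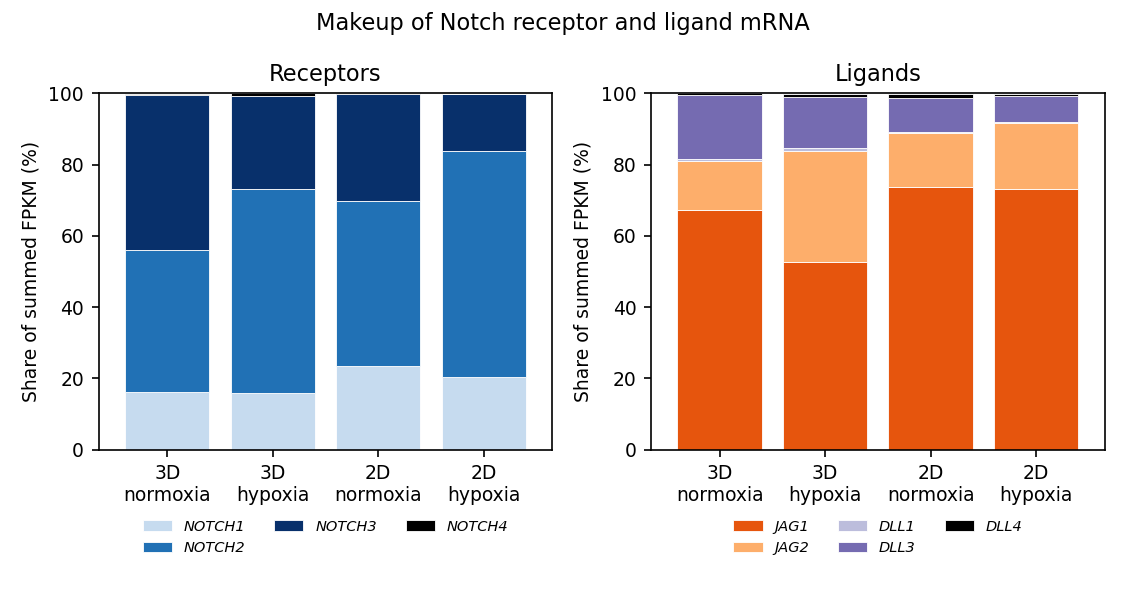
Share of each gene in the summed FPKM (y axis, percent) of 4 Notch receptors (left) and 5 canonical ligands (right) in each library (bars). NOTCH2 takes a larger share and NOTCH3 a smaller one in hypoxia than in normoxia in each culture, and the JAG2 share is highest in 3D hypoxia, at 31.3%.

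The wider pathway was read from lists of 60 further genes found in the files, of which 50 had a mean of at least 1 FPKM. By limma 1 of the 50 rose and 1 fell with hypoxia, a share near the 4.84% called among all genes. RBPJ, the DNA-binding partner of the Notch intracellular domain, was at 6.93 and 11.1 FPKM in the normoxic and hypoxic 3D libraries and at 5.99 and 9.85 FPKM in their 2D counterparts. The 2 hypoxic libraries stood above the 2 normoxic ones. RBPJ rose on average by 0.62 ± 0.11 (log2, SE; limma adjusted p = 0.0462), with near-equal ratios of 0.61 in 3D and 0.64 in 2D. Its call was lost after rescaling to a sum of 1000000 (adjusted p = 0.0604), without trend (0.0697) and without the filter (0.158). No other gene of the 17 in the list of nuclear complex and corepressors passed for oxygen, and 5 of the 17 had an unadjusted p below 0.05, RBPJ included, beside 25.6% of all genes.

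CNTN1, a neural adhesion molecule that has been described as a non-canonical Notch ligand, fell with hypoxia. It was at 146.3 and 87.0 FPKM in the normoxic and hypoxic 3D libraries and at 147.8 and 65.4 FPKM in their 2D counterparts, far above the Jagged ligands in each library. The average difference was -0.95 ± 0.15 (SE), limma adjusted p = 0.0329, and it did not pass without the filter (0.135). DNER and DLK2, membrane proteins also described as non-canonical ligands, were lowest in 3D normoxia. DNER was at 0.550 FPKM there and at 2.58, 1.75 and 2.62 in the 3D hypoxic, 2D normoxic and 2D hypoxic libraries, and DLK2 at 0.658, 2.29, 2.39 and 3.16 in that order. DNER and DLK2 passed limma neither for oxygen (adjusted p of 0.114 and 0.142) nor for culture (0.235 and 0.0705), although DLK2 passed for culture on rescaling (limma adjusted p = 0.0414). In 3D normoxia these values rest on about 21.3 and 16.0 fragments. DLK1 was listed at 0 in all 4 libraries.

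For culture, 7 of the 50 genes fell in 3D and 2 rose, a share near the 22.0% called among all genes. The median of the 50 was -0.21, beside -0.03 for all genes. Of the 17 genes of the nuclear list 5 were called, beside those 22.0%. SPEN, which represses RBPJ targets in the absence of Notch, was at 8.28 and 7.37 FPKM in the normoxic and hypoxic 3D libraries and at 14.4 and 14.9 FPKM in their 2D counterparts. SPEN fell by 0.83 ± 0.12 (limma adjusted p = 0.0134). The corepressor NCOR1 (-0.61), the acetyltransferase EP300 (-0.44) and the Groucho-type corepressor TLE4 (-0.80) fell too, with limma adjusted p between 0.0239 and 0.0455. TLE2, another Groucho-type corepressor through which HES proteins act, rose by 0.62 (limma adjusted p = 0.0431). HES6, a family member that counteracts HES1, rose in 3D by 0.59 ± 0.13 (limma adjusted p = 0.0317).

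Of the genes that cut the receptor, 1 of 9 passed for culture, again beside 22.0% of all genes. ADAM10, the main protease of ligand-induced cleavage, fell in 3D by 0.47 ± 0.12 (limma adjusted p = 0.0463). All 9 lay below 0, from -0.47 to -0.09, while 47.3% of all genes lay above 0. For oxygen 0 of 9 passed by limma, beside 4.84% of all genes. At an unadjusted p below 0.05 there was 1 of 9, beside 25.6% of all genes. That gene was FURIN, which trims the receptor on its way to the surface. The trafficking and turnover list had 2 of 11 fall in 3D, near the share of all genes, the ubiquitin ligase genes DTX2 (-0.62, limma adjusted p = 0.0460) and DTX3 (-0.53, adjusted p = 0.0292). Of 5 genes that glycosylate the receptors, 0 passed for culture by limma, with POFUT1, which adds the first O-fucose, at -0.37 (adjusted p = 0.0655, or 0.0208 on rescaling), LFNG at 0.08 and MFNG at -0.51. POFUT1 was the 1 of these 5 with an unadjusted p below 0.05 for culture, beside 40.3% of all genes. Among the other HES and HEY genes, HES4, HES6, HES7 and HEYL were expressed, HES2 and HEY2 stayed below 1 FPKM, and HES3 and HES5 were listed at 0. The 9 culture calls of the wider pathway were lost without the filter on low values, as were nearly all calls of the series. Those of ADAM10, DTX2, EP300 and TLE2 were also lost without trend, and those of TLE2 and HES6 after rescaling.

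**Figure D4:**
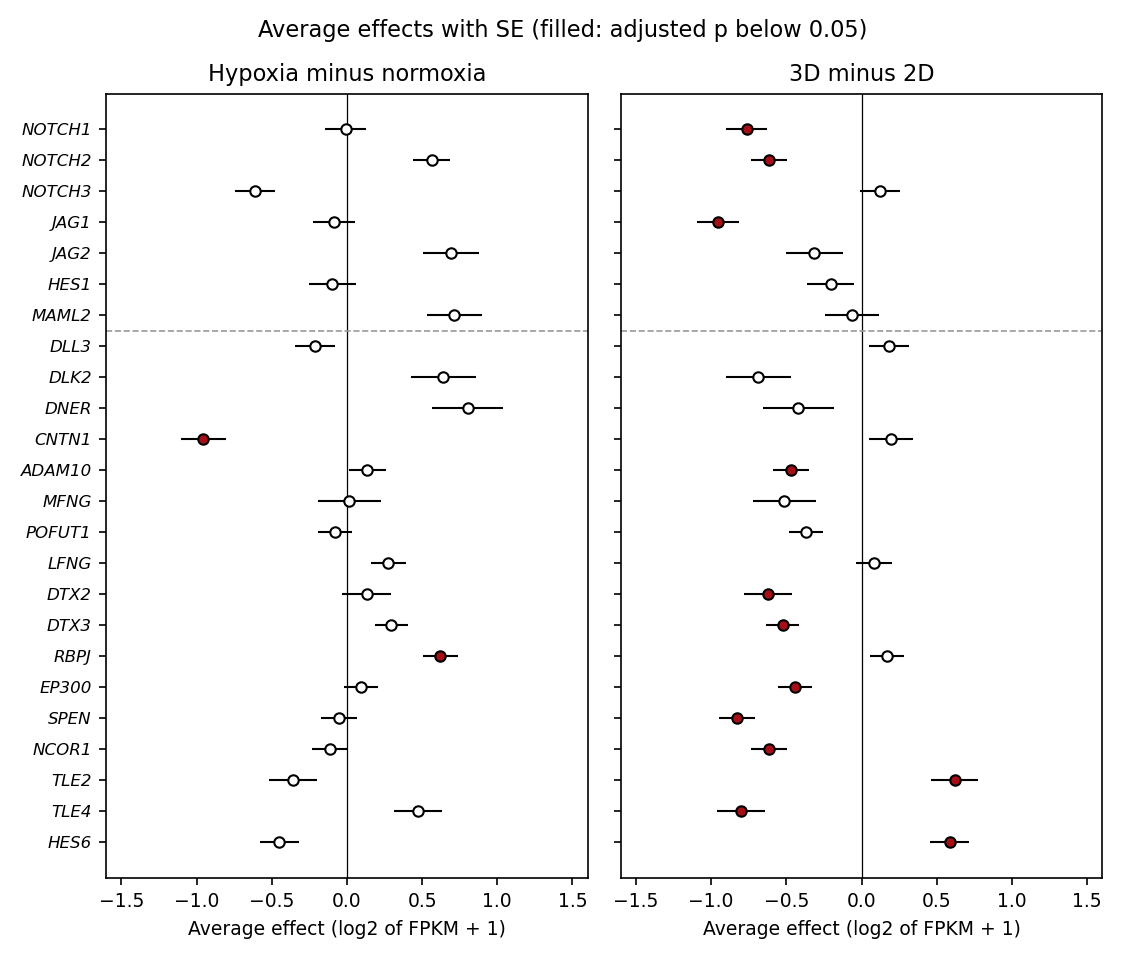
Average effects of oxygen (left, hypoxia minus normoxia) and of culture (right, 3D minus 2D) on log2 of FPKM + 1, with the limma SE as bars, for the 7 expressed members (above the dashed line) and 17 further pathway genes. Filled points have an adjusted p below 0.05. RBPJ and CNTN1 are filled on the left, at 0.62 and -0.95. On the right JAG1, NOTCH1 and NOTCH2 are filled among the members. ADAM10, DTX2, DTX3, EP300, SPEN, NCOR1, TLE2, TLE4 and HES6 are filled there among the further genes.

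Genes with the most similar pattern over the 4 libraries were sought for NOTCH2, JAG1 and JAG2, which had the widest ranges of log2(FPKM + 1) among the members. Likeness was the Euclidean distance between log2 values centred on their mean, over 9002 genes averaging 5 FPKM or more. CD151, a tetraspanin, lay at a distance of 0.083 from NOTCH2, DMKN at 0.085 and the receptor tyrosine kinase MET at 0.091. SLC26A2, a sulfate transporter, was at 0.099 from JAG1, the condensin subunit SMC4 at 0.101 and CIT, a kinase of cytokinesis, at 0.104. PLEKHG3 was at 0.082 from JAG2, FUT11, a fucosyltransferase, at 0.104 and TMEM43 at 0.121. With 4 libraries many genes share such a profile, since 71, 65 and 32 genes lay within 0.25 of NOTCH2, JAG1 and JAG2.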

How the data were processed

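For each library the authors deposited FPKM values by gene symbol. Cuffdiff 2.2.1, SAMtools 0.1.18, Bowtie2 2.2.8, TopHat2 2.1.1 and the build hg19 are named, with no roles, in the submitters' processing notes. The annotation, scaling between libraries and strand setting are not stated in the labels. Members were matched by symbol and groups came from the labels. FPKM values are not counts, so log2(FPKM + 1) was used for genes averaging 1 FPKM or more. Pairs of libraries were described by size (at least 2-fold). limma 3.58.1 in R 4.3.3 was fitted with trend and an additive design of oxygen and culture, leaving 1 residual degree of freedom beside 4.67 prior ones. The error term also holds any difference between the hypoxia responses of the cultures, and it borrows from the spread of all genes. It does not measure scatter between replicate cultures. The p-values reflect the spread among these 4 libraries alone, which may be technical.

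Fragments behind a value were estimated from the commonest low FPKM times transcript length in 2134 single-transcript genes (58 to 76 of them near it), with lengths from GENCODE 29. Promoters of 8 of the 9 members came from RefSeq, and that of HEY1 was not used. Python 3.11.15, numpy 2.4.6, pandas 2.3.3 and matplotlib 3.10.9 were used.

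The members and lists were chosen with earlier results of these data known. Named were all 9 members and each listed pathway gene that passed limma or was at least 2-fold apart in a pair, otherwise up to 3 of a list with the largest ratios. Of the listed genes, 1 is not reported here. CA9, MKI67, FURIN and NOTCH2NL were added after their values were seen. Alternatives were a pseudocount of 0.1, rescaling to a sum of 1000000, no filter, a mean of at least 5 FPKM, and limma without trend.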

Additional observations from a re-analysis of the deposited data

Results flagged for a closer look

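Of the 7 expressed members, 6 had ratios of opposite sign in the 2 strata of a comparison, each with 1 library per group, and the differences were not tested. With oxygen, NOTCH1 and HES1 were above 0 in 3D and below 0 in 2D, with responses that differed by 0.29 and 0.51 (log2), and JAG1 was below 0 in 3D and above 0 in 2D (-0.39). With culture, HES1 (0.51), JAG2 (0.69) and NOTCH3 (0.30) were below 0 in normoxia and above 0 in hypoxia, and MAML2 the reverse (-0.32). In these 7 pairs, only the JAG1 ratios (-0.28 and 0.11) both lay outside their counting intervals of 0, and the one in 2D changed sign on rescaling.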

How the results depend on the processing

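Of 28 pair ratios of the members, 4 changed direction after rescaling to a sum of 1000000, all small: JAG1 with oxygen in 2D (to -0.02), JAG2 (to -0.15) and HES1 (to -0.13) with culture in hypoxia, and MAML2 with culture in normoxia (to -0.002). Rescaling moved the median of all genes from -0.03 to -0.21 in the culture effect and from -0.01 to -0.14 in the oxygen effect. It also reversed effects that had not passed: for culture NOTCH3 (-0.0511), LFNG (-0.10) and RBPJ (-0.0083), for oxygen EP300 (-0.0323) and MFNG (-0.0811, and -0.0225 with a pseudocount of 0.1). Of 68 alternative values of the members' average effects, 62 kept direction and side of the threshold. Calls of limma went from 613 to 5 for oxygen and from 2785 to 3 for culture without the filter, and to 366 for oxygen without trend. Genes at least 2-fold apart went from 456 to 698 (oxygen in 2D), 566 to 924 (culture in normoxia) and 346 to 607 (difference of responses) with a pseudocount of 0.1. They went to 899 (culture in normoxia) on rescaling and to 227 (difference of responses) at a mean of at least 5 FPKM. On rescaling, higher genes as a share of those 2-fold apart went from 72.3% to 58.1% and 55.9% to 40.9% for oxygen in 3D and 2D, and from 44.3% to 21.7% and 55.7% to 35.8% for culture in normoxia and hypoxia. Calls went from 405 up and 208 down to 303 and 475 for oxygen, and from 1313 and 1472 to 767 and 3132 for culture. No paired analysis was possible because each group had 1 library and no replicate numbers, beyond the additive fit that already sets oxygen within culture, and no library could be left out of the additive fit for the same reason. Depth limits the genes near or below 1 FPKM, such as HEY1, NRARP, DNER and DLK2.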
